A study of Mus musculus with 3 samples.

Results

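The ADAM, ADAMTS and MMP proteases and their inhibitors were examined in cultured cells of the mouse medial ganglionic eminence (MGE), the embryonic forebrain region that gives rise to many cortical and striatal interneurons. Members were all probe sets whose single gene symbol named an Adam, Adamts, Adamtsl or Mmp gene, Timp1 to Timp4 or Reck. Adam10 and Adam17 were left out of the set. The rule gave 87 probe sets for 81 genes, out of 41345 probe sets on the array and 23521 that carried 1 gene symbol. By family they were 31 ADAM, 18 ADAMTS, 5 ADAMTS-like and 22 MMP genes, and 5 inhibitor genes.

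All 3 samples belong to a single group of wild-type CD-1 cultures labelled as purified MGE interneurons, numbered cultures 1, 2 and 3. MGE tissue of embryonic day 13 was plated on laminin and poly-D-lysine in medium with FGF2 at 40 ng/ml, a growth factor that all 3 cultures shared. AraC, which kills cells as they copy DNA, was present at 1 µM for 24 h from day 5, and RNA was taken after 2 further days. Purification thus rested on the drug and on washing, with no sort, and there was no comparison condition. What can be asked is which members gave signal above background and how far the cultures differed.

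ADAM proteins are membrane-anchored relatives of snake venom proteases that cut growth factors and adhesion molecules off the cell surface, although several members lack a working catalytic site. ADAMTS proteases are secreted and cut matrix proteoglycans and procollagens, and ADAMTS-like proteins share their ancillary domains without the protease. MMPs are matrix-cutting enzymes made as inactive precursors. TIMP proteins block the active site of MMPs and of some ADAM and ADAMTS enzymes, and RECK is a membrane-anchored inhibitor. In developing brain these enzymes act in neuron migration, axon growth, synapse remodelling and turnover of the perineuronal matrix.

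Values are log2 signals from 1 array per culture, and means are given ± SD over n = 3 cultures. The background line was the 95th percentile, 6.26, of 1435 probe sets that measure smell, vomeronasal and bitter taste receptors, which brain cells are not expected to make. A gene was called above background when limma's 1-sided moderated test of the mean against that line gave a Benjamini-Hochberg adjusted p under 0.05 over all probe sets tested. Binding strength varies from probe set to probe set, so levels were not ranked between genes. Nor can a low array signal separate fewer cells of a type from less RNA per cell. Among marker lists, 7 of 7 MGE interneuron markers and 5 of 5 general neuronal markers were above background, as were 6 of 6 oligodendrocyte lineage, 5 of 7 astrocyte, 5 of 8 microglial, 4 of 5 endothelial and 5 of 7 pericyte, fibroblast and meningeal markers, and 0 of 4 cortical glutamatergic markers by limma. At an unadjusted p under 0.05 the last count was 0 as well. Since 63.4% of all genes tested were above background, a count near that share, as for microglia, says nothing particular of the list. The same share is the comparison for the counts of the role lists and other gene lists below. With a margin of 1 log2 unit over the line, the MGE, neuronal and oligodendrocyte markers all passed, as did 4 of 7 astrocyte and 1 of 7 pericyte, fibroblast and meningeal markers (Acta2, at 9.39 ± 0.88), and by limma 0 microglial and 0 endothelial markers did, also 0 each at an unadjusted p under 0.05. Each array measured a whole culture, so the cells that gave a member's signal cannot be told.

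Of the 81 genes, 39 (48.1%) were above background, beside the 63.4% of all 20755 genes tested. With a margin of 1 log2 unit over the line, 22 members (27.2%) were above it, beside 47.6% of all genes. Outside the 21 sperm and epididymal ADAM genes described below, 37 of 60 members (61.7%) were above background. When a run of 10 neighbouring MMP genes was left out too, the count was 37 of 50 (74%), and 22 (44%) with the margin. Leaving out groups with few called genes raises the share by construction. ADAMTS had 14 of 18 genes above background, ADAMTS-like 4 of 5 and the inhibitors 4 of 5, whereas ADAM had 10 of 31 and MMP 7 of 22. With the margin the same counts were 6, 0, 4, 7 and 5, in that order. The ADAMTS-like count of 0 by limma with the margin was also 0 at an unadjusted p under 0.05.

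**Figure D1:**
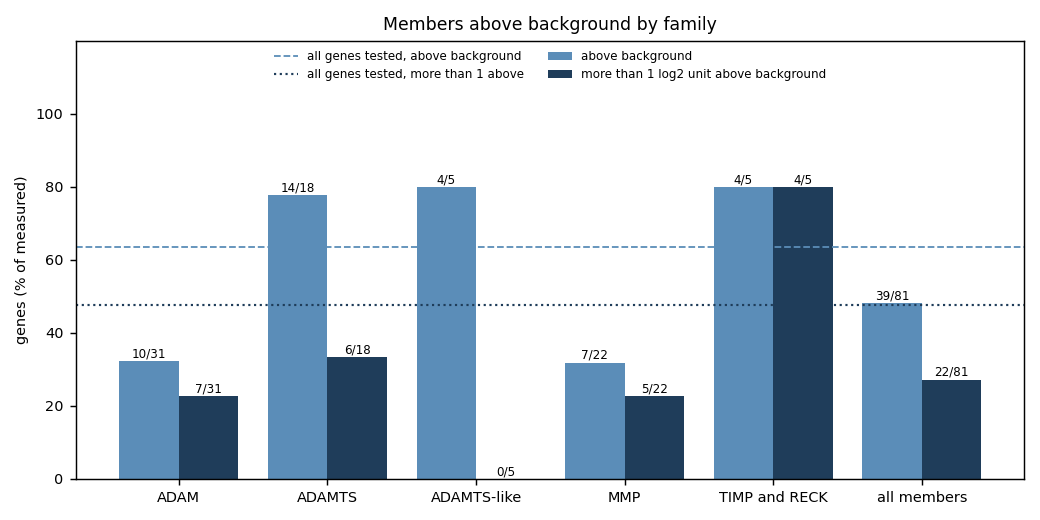
Share of measured genes in each family above background (light bars) and more than 1 log2 unit above it (dark bars), in percent, with counts over the bars and dashed and dotted lines at 63.4% and 47.6% for all genes tested. The ADAM and MMP bars stand under both lines, and the inhibitors stand above both.

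The ADAM genes whose proteins bind LGI ligands were all above background. Adam11, Adam22 and Adam23 encode neuronal surface proteins without a working protease site, and Adam22 and Adam23 hold the secreted protein LGI1 at synapses. Adam22 measured 9.49, 9.62 and 9.55 in cultures 1, 2 and 3 (9.55 ± 0.06, limma adjusted p = 1.63e-06). Adam23 measured 9.45, 10.06 and 9.84 (9.78 ± 0.31, adjusted p = 1.4e-05). Adam11 measured 7.60, 8.29 and 7.91 (7.93 ± 0.35, adjusted p = 0.000295). All 3 genes were lowest in culture 1 and highest in culture 2, by 0.13 log2 units for Adam22 and by 0.61 and 0.70 for Adam23 and Adam11. The ligand genes were above background in 3 of 4 cases. Lgi1, the ligand lost in an inherited epilepsy, measured 9.71, 10.81 and 10.70, and Lgi2 measured 9.78, 10.98 and 10.90, so both were lowest in culture 1 as well. Lgi3 went the other way, with 8.15, 7.84 and 8.04 (8.01 ± 0.16), highest in culture 1 and lowest in culture 2. Lgi4, a ligand of peripheral glia, was not above background at 6.31 ± 0.01 (adjusted p = 0.271).

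Among 7 ADAM genes listed as active proteases, 5 (71.4%) were above background, beside 63.4% of all genes tested. Of these, 4 were above it by more than 1 log2 unit. Adam9, a widely expressed sheddase, measured 10.38, 10.12 and 10.05 (10.18 ± 0.18, limma adjusted p = 2.77e-06). Its highest value was in culture 1, unlike the other 4. Adam15, whose extracellular part carries an integrin-binding site, measured 9.69, 9.73 and 9.57 (9.66 ± 0.08), and its other probe set was above background too, at 7.36 ± 0.26. Adam12 and Adam19, the meltrins first described in muscle cell fusion, were at 8.67 ± 0.18 and 8.30 ± 0.25. For Adam19, which can cut neuregulin precursors, the second probe set was at 5.66 ± 0.14 and was not called, so its probe sets disagreed. Adam8, an enzyme of leukocytes and microglia, measured 6.66, 7.09 and 6.93 and was above background without the margin (6.89 ± 0.21, adjusted p = 0.00243). The microglial markers gave mean levels of 6.56, 6.41 and 6.59 in cultures 1, 2 and 3, and their part in the Adam8 signal was not tested. Adam28, known from lymphocytes, and Adam33, known from airway smooth muscle, were at 5.53 ± 0.12 and 6.14 ± 0.29 and were not called. Adam33 straddled the line, with 6.32 and 6.30 in cultures 1 and 3 and 5.80 in culture 2.

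Genes of the sperm and epididymal ADAM group were mostly at background. Of 21 measured, 19 had means under the line, from 3.10 for Adam25 to 5.71 for Adam3. They include Adam2, which encodes fertilin beta of the sperm surface, at 4.93 ± 0.13. The 2 above background were Adam1a, encoding fertilin alpha, with 6.93, 7.14 and 6.90 (6.99 ± 0.13, limma adjusted p = 0.000435), and Adam4, with 6.75, 6.65 and 6.35 (6.58 ± 0.21, adjusted p = 0.0221). Adam1a lay over the line in all cultures, and its neighbour and close relative Adam1b, at 5.08 ± 0.13, lay under it in all. Signal can be shared between probe sets of such similar genes. Neither gene passed with the margin, and Adam4 lost its call without culture 1 (adjusted p = 0.0831) and without culture 2 (0.228).

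ADAMTS enzymes that cut lecticans, the chondroitin sulphate proteoglycans of brain matrix, were above background in 6 of 7 cases. Adamts1 measured 7.90, 8.57 and 8.18 (8.22 ± 0.34, limma adjusted p = 0.000147), and Adamts9 measured 8.64, 8.90 and 8.57 (8.71 ± 0.17, adjusted p = 1.02e-05). These were the 2 genes of the group that passed with the margin. Adamts4 and Adamts5, the main aggrecanases of cartilage, were at 7.06 ± 0.10 and 7.34 ± 0.35. Adamts20, which melanoblasts need to spread through the skin, was at 6.74 ± 0.05. Their substrates were above background for Bcan (11.17 ± 0.27), Ncan (12.21 ± 0.21) and Vcan (10.33 ± 0.10), which encode brevican, neurocan and versican. Acan, encoding aggrecan, was not, with 6.21, 7.20 and 6.48 (adjusted p = 0.121).

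Adamts15 and its neighbour Adamts8 had the widest spread of all members. Adamts15 measured 6.22, 8.04 and 7.54, a span of 1.82 log2 units, with culture 1 just under the line and the others well over it. Its mean passed narrowly (7.27 ± 0.94, limma adjusted p = 0.0451), and it did not pass without culture 2 (0.281) or without culture 3 (0.189), while without culture 1 it did (0.00573). Adamts8 measured 6.16, 7.24 and 6.68 on its brighter probe set and 6.16, 6.54 and 6.65 on the other, and was not called (6.70 ± 0.54, adjusted p = 0.0952). Without culture 1 it was (adjusted p = 0.0347). Both genes were lowest in culture 1. These were the 2 members (2.47%) that spanned more than 1 log2 unit, beside 1.29% of all genes tested. Without culture 1 the count was 0, without culture 2 it was 1 and with the mean of each gene's probe sets it was 1. Acan was lowest in culture 1 and highest in culture 2 as well. The called lectican genes went the other way, with Bcan, Ncan and Vcan each highest in culture 1.

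Both measured ADAMTS genes for procollagen propeptidases were above background. Adamts3, which trims procollagen and also cuts reelin, measured 7.30, 7.58 and 7.25 (7.38 ± 0.18, limma adjusted p = 0.00018). Adamts14 measured 7.22, 7.51 and 7.08 (7.27 ± 0.22), but its second probe set, at 6.35 ± 0.07, was not called (adjusted p = 0.147). Reln, which encodes the migration signal reelin, was above background with 10.51, 11.54 and 11.34. Of the other 9 ADAMTS genes, 6 (66.7%) were above background, near the 63.4% of all genes tested. Adamts6 (8.55 ± 0.09) and Adamts10 (7.76 ± 0.22), which act on fibrillin microfibrils, passed with the margin. So did Adamts7 (8.58 ± 0.14), an enzyme that cuts cartilage oligomeric matrix protein, and Adamts17 (8.49 ± 0.29), mutated in an eye and growth syndrome. Adamts12 (7.38 ± 0.23), the closest relative of Adamts7, and Adamts16 (6.78 ± 0.06) passed without it. Adamts13, the enzyme that cuts von Willebrand factor, measured 6.23, 6.26 and 6.24, on the line itself (adjusted p = 0.94). Adamts18 and Adamts19 were under the line at 5.27 ± 0.33 and 6.04 ± 0.09.

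ADAMTS-like genes lay close to the line. Adamtsl2, encoding a protein of fibrillin microfibrils, measured 7.15, 6.77 and 7.18 (7.03 ± 0.23, limma adjusted p = 0.00135). Adamtsl1 measured 6.87, 7.14 and 6.98, and Adamtsl4, mutated in displaced lens, was at 6.82 ± 0.03. All values of these genes were over the line. Adamtsl3 passed by a small distance, at 6.39 ± 0.02 (adjusted p = 0.0486), and lost its call whichever culture was left out (adjusted p = 0.0616, 0.276 and 0.146 without cultures 1, 2 and 3). Adamtsl5, at 6.46 ± 0.21, was not called (adjusted p = 0.0863) but was without culture 2 (0.0161), where it measured 6.22 against 6.59 in each of the others.

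Among MMPs the membrane-type enzymes and Mmp2 gave the clear signals. Mmp16, a membrane-type enzyme of brain, measured 10.37, 10.52 and 10.47 (10.45 ± 0.08, limma adjusted p = 1.37e-06). Mmp24, a membrane-type enzyme that neurons use to cut N-cadherin, measured 9.37, 10.15 and 9.84 (9.79 ± 0.39, adjusted p = 2.82e-05). Both lay far over the line in every culture, and Mmp24 was lowest in culture 1. Mmp14, which activates the Mmp2 precursor at the cell surface, measured 8.10, 7.82 and 8.23 (8.05 ± 0.21, adjusted p = 5e-05). Mmp17, held in the membrane by a lipid anchor, was at 8.27 ± 0.15. Mmp25, the lipid-anchored enzyme of leukocytes, lay just over the line in every culture (6.38, 6.32 and 6.39) and was not called (adjusted p = 0.089). Mmp2, the gelatinase that Mmp14 activates with the help of Timp2, measured 8.65, 9.11 and 8.38 (8.71 ± 0.37, adjusted p = 8.78e-05). The other gelatinase, Mmp9, which is induced by activity and inflammation, measured 6.25, 6.29 and 6.48 and was not called (6.34 ± 0.12, adjusted p = 0.238).

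Few other MMPs passed. Mmp11, a stromelysin that is activated inside the cell by furin, measured 7.24, 6.97 and 7.19 (7.14 ± 0.14, limma adjusted p = 0.000263), with its second probe set under the line at 6.01 ± 0.11. Mmp28, known from skin repair, passed narrowly at 6.44 ± 0.12 (adjusted p = 0.0427) and did not without culture 1, 2 or 3 (0.0824, 0.50 and 0.065). Mmp19 (6.39 ± 0.19) and Mmp23 (6.37 ± 0.11) were over the line in the mean but not called, and Mmp19 was called without culture 1 (adjusted p = 0.0319). Mmp21, needed for left-right asymmetry, was under the line at 5.85 ± 0.08. Genes for the convertases that remove inhibitory prodomains from many of these enzymes were above background in 4 of 4 cases, each highest in culture 2, with Furin at 9.12 ± 0.11 and Pcsk6 at 9.28 ± 0.35.

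**Figure D2:**
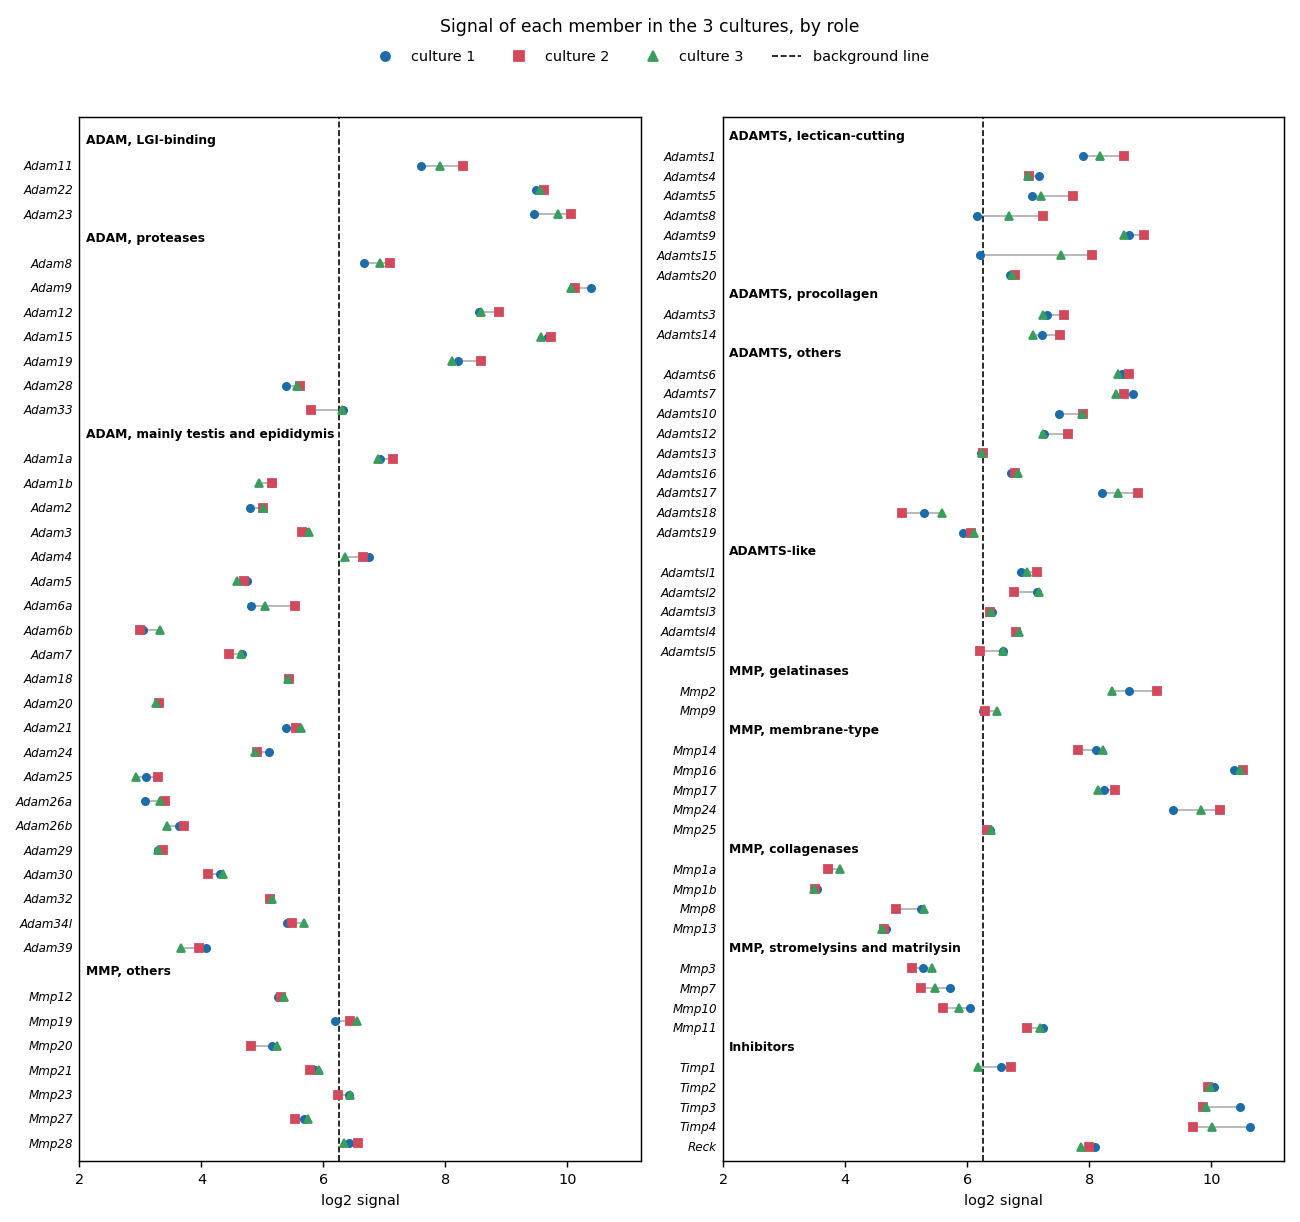
Log2 signal (horizontal axis) of each of the 81 members in cultures 1 (circles), 2 (squares) and 3 (triangles), grouped by role, with a grey bar from the lowest to the highest culture and a dashed line at the background of 6.26. The LGI-binding genes and Timp2, Timp3 and Timp4 lie right of the line in all cultures, the collagenases lie left of it, and Adamts15 and Adamts8 span the line.

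A run of 10 MMP genes that follow each other in the genome was at background throughout. Neighbours were read from the order of protein-coding genes in RefSeq (assembly GRCm38.p6, in which all 81 members were found), with at most 2 other genes allowed between them. In order the run is Mmp13, Mmp12, Mmp1b, Mmp3, Mmp1a, Mmp10, Mmp8, Mmp27, Mmp20 and Mmp7. It holds the 4 collagenases, which cut fibrillar collagen, 2 stromelysins (Mmp3 and Mmp10), the macrophage elastase Mmp12, the enamel protease Mmp20 and the matrilysin Mmp7. By limma 0 of the 10 were above background, and 0 were at an unadjusted p under 0.05. Their means ran from 3.51 for Mmp1b to 5.83 for Mmp10, and the highest value in any culture was 6.04, for Mmp10 in culture 1. No member of the run reached the line in any culture.

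The windows from 250 bases before to 50 bases after the start site of these genes are shown because they are the stretch in which the inducible MMP genes are known to carry sites for AP-1, the Fos and Jun factor that growth factors and activity call up. The letters TGANTCA, a motif that reads the same on both strands, were found in 8 of the 10 genes (8 of their 12 windows, 66.7%), beside 7.81% of the 32851 windows of all genes in the RefSeq table. The median GC content was 41.7% in the windows of the run and 52.7% over all windows, and the counts were not matched for it. In Mmp3, Mmp10 and Mmp13 the match began at bases -46, -63 and -35 from the start site. Windows were in the table for 50 of the 81 members (61.7%), too few for a statement on promoters over all members, so such features are given only for groups with every gene in the table. The RefSeq sequences (GRCm38.p6) lie at chr9:7445572-7445871, chr9:7502092-7502391 and chr9:7272264-7272563, all on the plus strand, with the motif in capitals.
Mmp3: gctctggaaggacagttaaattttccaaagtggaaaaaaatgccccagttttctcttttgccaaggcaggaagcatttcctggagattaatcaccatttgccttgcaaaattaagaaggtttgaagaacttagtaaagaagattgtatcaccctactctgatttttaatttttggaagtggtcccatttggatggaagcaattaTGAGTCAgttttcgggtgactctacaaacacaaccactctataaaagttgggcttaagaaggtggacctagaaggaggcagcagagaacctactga
Mmp10: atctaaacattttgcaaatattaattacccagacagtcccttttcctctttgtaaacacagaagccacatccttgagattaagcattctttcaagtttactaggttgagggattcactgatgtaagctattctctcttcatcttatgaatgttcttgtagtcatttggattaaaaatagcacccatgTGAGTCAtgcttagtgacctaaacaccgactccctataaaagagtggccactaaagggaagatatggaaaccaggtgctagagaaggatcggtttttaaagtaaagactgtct
Mmp13: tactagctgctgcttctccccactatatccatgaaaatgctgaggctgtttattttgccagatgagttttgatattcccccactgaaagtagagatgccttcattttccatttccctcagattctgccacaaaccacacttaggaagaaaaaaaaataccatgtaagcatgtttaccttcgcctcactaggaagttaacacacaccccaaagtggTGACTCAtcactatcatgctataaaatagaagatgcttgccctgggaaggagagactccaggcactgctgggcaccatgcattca
A match is a description of these letters and not evidence of a working site.

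Of the other 9 runs, 4 held both called and uncalled genes, 4 held no called gene, and in the run of Adamts1 and Adamts5 both were called. Adam9, at 10.18 ± 0.18, closes a run behind Adam18, Adam3, Adam5 and Adam32, which lay between 4.68 and 5.71 and were not called. Runs of Adam24, Adam25, Adam20 and Adam39, and of Adam26b, Adam26a and Adam34l, held 0 genes above background by limma, also at an unadjusted p under 0.05. Adamts1 and Adamts5 lie side by side, and both were above background, lowest in culture 1 and highest in culture 2, by 0.67 log2 units each. In all, 34 members lay in 10 such runs, with 6 of them above background, against 33 of the 47 that lay elsewhere. Over all genes tested the share was 63.4%. Most of the 34 belong to the MMP run or the sperm and epididymal ADAM group, so the contrast largely restates their low counts. Genes of a run have similar sequences and may share signal, so these counts describe the array and carry no test.

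**Figure D3:**
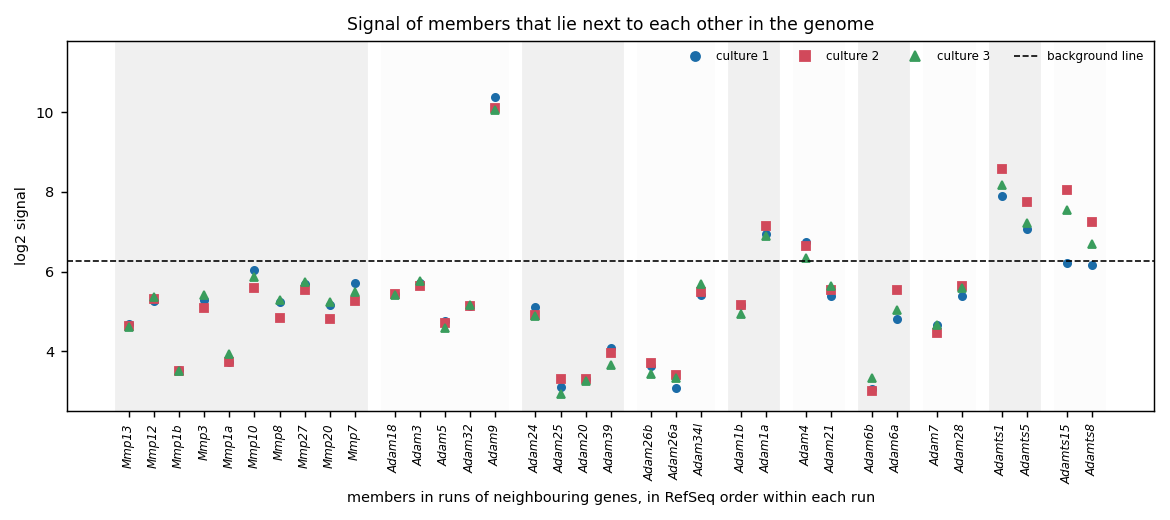
Log2 signal (vertical axis) in cultures 1 (circles), 2 (squares) and 3 (triangles) of the 34 members that lie in 10 runs of neighbouring genes (shaded blocks), in RefSeq order within a run, with a dashed line at the background of 6.26. All 10 genes of the MMP run lie under the line in every culture, and Adam9 lies over it beside 4 genes under it.

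The inhibitor genes were above background in 4 of 5 cases, all with the margin. Timp2, the inhibitor that also helps Mmp14 to activate Mmp2, measured 10.05, 9.94 and 9.99 (9.99 ± 0.05, limma adjusted p = 1.39e-06). Timp3, which binds to the matrix and also blocks ADAM and ADAMTS enzymes, measured 10.47, 9.86 and 9.92 (10.08 ± 0.34, adjusted p = 1.36e-05). Timp4 measured 10.63, 9.71 and 10.01 (10.12 ± 0.47, adjusted p = 3.79e-05). Every value of these 3 genes lay more than 3 log2 units over the line. Reck, which also acts with Wnt7 ligands at brain vessels, was at 7.98 ± 0.11 with 8.09, 7.99 and 7.87. Timp1, the inhibitor that rises with injury and cytokines, measured 6.56, 6.71 and 6.18 and was not called (6.48 ± 0.27, adjusted p = 0.106), although it was without culture 3 (0.0252).

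All 5 inhibitor genes had a promoter window in the RefSeq table, and none held TGANTCA. These windows held between 2 and 25 CG dinucleotides (median 23), against a median of 7 over all windows and of 1 in the run of MMP genes, which ranged from 0 to 7. Timp4 had 2 and was above background, so the number of CG pairs did not separate called from uncalled genes among the inhibitors. Timp2 (chr11:118355362-118355661, minus strand) and Timp3 (chr10:86300162-86300461, plus strand) are shown for contrast with the MMP windows, with their 25 and 24 CG dinucleotides in capitals.
Timp2: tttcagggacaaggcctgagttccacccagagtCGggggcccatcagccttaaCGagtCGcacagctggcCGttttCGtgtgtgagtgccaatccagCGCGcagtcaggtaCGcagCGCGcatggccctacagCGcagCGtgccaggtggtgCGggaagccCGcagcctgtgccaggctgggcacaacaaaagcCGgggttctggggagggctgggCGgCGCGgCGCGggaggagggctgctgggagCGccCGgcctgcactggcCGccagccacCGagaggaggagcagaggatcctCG
Timp3: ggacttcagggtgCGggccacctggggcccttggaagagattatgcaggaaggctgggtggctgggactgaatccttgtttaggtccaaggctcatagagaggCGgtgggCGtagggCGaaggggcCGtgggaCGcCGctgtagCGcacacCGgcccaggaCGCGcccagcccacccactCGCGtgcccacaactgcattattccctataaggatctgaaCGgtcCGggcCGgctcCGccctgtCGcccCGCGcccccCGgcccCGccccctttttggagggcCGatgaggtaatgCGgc
The Timp1 window held 8 CG dinucleotides.

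Over the 39 members above background, culture 2 was most often the highest. It was highest for 25 of them (64.1%), beside 52.1% of all genes above background, while culture 1 was highest for 10 and culture 3 for 4. The median deviation of these members from their own mean was -0.06, 0.13 and -0.07 log2 units in cultures 1, 2 and 3, beside -0.02, 0.04 and -0.02 over all genes above background. Over all 81 members, called or not, the median SD was 0.14, beside 0.13 over all genes tested. By family, culture 2 was highest for 8 of 10 ADAM, 11 of 14 ADAMTS and 5 of 7 MMP genes. It was highest for 0 of the 4 called inhibitors, all of which were highest in culture 1.

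Culture 1 and culture 2 also differed in cell type markers. All 7 astrocyte markers were highest in culture 1, with mean levels of 8.57, 7.78 and 8.26 in cultures 1, 2 and 3, and Gjb6 under the line in all. Oligodendrocyte lineage markers were highest in culture 1 for 5 of 6, with mean levels of 10.06, 9.77 and 9.80. MGE interneuron markers were lowest in culture 1 for 7 of 7, with mean levels of 10.20, 10.64 and 10.54. Cortical glutamatergic markers were highest in culture 2 for 4 of 4, with mean levels of 5.93, 6.69 and 6.05. General neuronal markers were mixed, lowest in culture 1 for 3 of 5 and highest there for 2. Microglial markers were lowest in culture 2 for 6 of 8. Endothelial markers were highest in culture 2 for 3 of 5, and pericyte, fibroblast and meningeal markers were split between cultures. Called members with culture 1 on top, like the astrocyte markers, were Timp2, Timp3, Timp4, Reck, Adam4, Adam9, Adamts4, Adamts7, Adamtsl3 and Mmp11. Those with culture 1 at the bottom, like the interneuron markers, numbered 15. They were Adam8, Adam11, Adam12, Adam22, Adam23, Adamts1, Adamts5, Adamts10, Adamts15, Adamts16, Adamts17, Adamts20, Adamtsl1, Mmp16 and Mmp24. Of all genes above background, 43.8% were lowest in culture 1 and 32.4% highest there, beside 15 (38.5%) and 10 (25.6%) of the 39 members. The part of these cells in the members' values was not tested, and with 1 array per culture a difference between cultures has no replicate check.

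**Figure D4:**
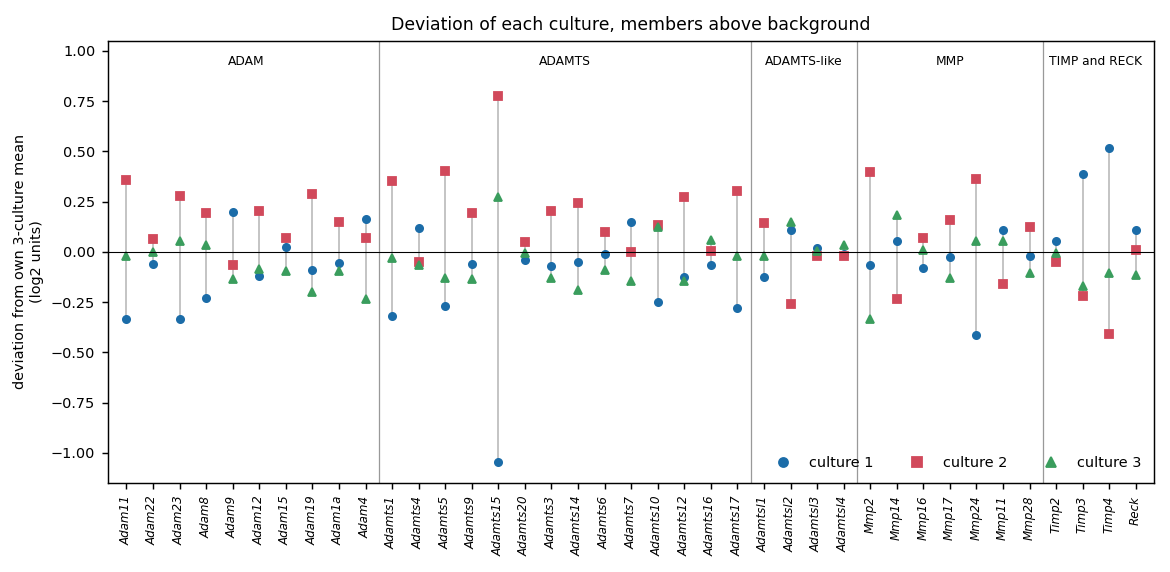
Deviation of each culture from the gene's own mean over 3 cultures (vertical axis, log2 units) for the 39 members above background, with cultures 1 (circles), 2 (squares) and 3 (triangles) and family boundaries as vertical lines. Culture 2 is on top for most ADAM and ADAMTS genes, culture 1 for the 4 inhibitors, and Adamts15 spans 1.82 log2 units.

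Lists set beside the members held LGI ligands, lecticans and reelin as well as other genes of extracellular proteolysis. Of their 33 measured genes, 28 were above background, beside 63.4% of all genes tested. With the margin 23 of the 33 were, beside 47.6% of all genes. In the plasminogen system 4 of 5 measured genes were, among them Plat, encoding tissue plasminogen activator, at 10.39 ± 0.27, and Serpini1, encoding the neuronal inhibitor neuroserpin, at 8.24 ± 0.44. Plg, which encodes plasminogen itself and is made mainly by liver, was not (6.23 ± 0.13). Of astacin proteases and their enhancers 4 of 5 were, with Bmp1, the procollagen C-proteinase, at 9.70 ± 0.21 and Tll1 at 7.36 ± 0.55. Tll1 did not pass with the margin. Of regulators and clearance receptors 9 of 10 were. They include A2m, the broad protease trap alpha-2-macroglobulin, with 11.48, 10.54 and 10.78, Lrp1, the receptor that clears protease complexes, at 10.16 ± 0.14, and the testican gene Spock3, with 9.85, 10.71 and 10.65. A2m was highest in culture 1 and Spock3 lowest there. Tfpi2 was not above background at 6.12 ± 0.22.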

How the data were processed

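The authors deposited log2 signals, 1 per probe set and culture, made with oligo and RMA per the submitters' processing notes. RMA corrects background, brings arrays to a common distribution and summarizes probes. Versions, filters and genome build were not given in the sources used here. The signals lay between 2.07 and 13.9, with medians of 6.57, 6.52 and 6.56. Arrays give no read depth, and their number limits the precision. Gene names were read from the platform's annotation, and 1814 probe sets with several symbols, of which 3 name a member, and 16010 with none were not used.

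The background came from 1435 receptor probe sets, and limma 3.58.1 (R 4.3.3) fitted an intercept to the other 22086 (20755 genes), with 2.13 prior degrees of freedom. A gene counted as called when at least 1 probe set passed, and its printed value comes from the probe set with the highest mean. Of 85 genes in the role lists, 4 had no probe set of their own and were not analysed here, namely Adam34, Adamts2, Adamtsl6 and Mmp15. A planned protein motif search was not run. Promoter windows were examined instead, for groups chosen after the coverage and the members' results were seen. The sample titles call the cultures biological replicates, but nothing in the labels says that they came from separate litters. Each p value sets the distance of a mean from the background line against the moderated spread between these samples. It therefore speaks for these samples only.

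The members and lists were chosen with earlier results of these data known. Named genes were the members of each role list, those passing with the margin, the 5 largest SDs, those within 0.25 log2 units of the line, and those whose call changed without 1 culture or whose probe sets disagreed. Alternatives numbered 13 and covered the line, the margin, the test, the prior, normalization, dim probe sets, probe set averaging and each culture left out.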

Additional observations from a re-analysis of the deposited data

How the results depend on the processing

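The count of members above background was 39 and lay between 37 and 49 under the other settings except the stricter lines, where it was 23 at the 99th percentile of the receptor probe sets, 22 with other background families (line at 7.27) and 22 with a margin of 1, and without 1 culture it ran from 36 to 38. ADAMTS members above background were 7 at the 99th percentile, 6 with other families and 6 with the margin, ADAMTS-like members were 0 under these 3 settings, and MMP members were 11 at the 90th percentile. By construction a higher line calls fewer genes. The margin is itself an alternative, so only the 22 members passing with it could be above background under every alternative. All 22 were, and 32 members were above background under none. Without 1 culture the family counts ran from 9 to 10 for ADAM, 13 to 15 for ADAMTS, 3 to 4 for ADAMTS-like, 6 to 7 for MMP and 4 to 5 for the inhibitors. Members spanning more than 1 log2 unit numbered 1 with the mean of probe sets and 0 to 2 without 1 culture. The median deviation per culture kept its sign under all 3 alternatives tried for it. No paired analysis was possible because there is 1 group. Slide and scan date were not used here.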
